A study of Caenorhabditis elegans with 2 samples.

Results

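The genes described here are the Caenorhabditis elegans protein-coding genes that encode translation initiation, elongation and release factors. They were taken by symbol, as every gene whose name starts with eif-, eef-, ife-, iff-, ifg- or erfa-, which gave 41 of the 19973 protein-coding genes on the nuclear chromosomes. The measurement was chromatin immunoprecipitation sequencing (ChIP-seq) of the protein T26A8.4 in whole L4 larvae, with an antibody against GFP. The animals were of strain OP692, mutant for unc-119 by the allele tm4063. Its integrated transgene wgIs692 carries unc-119(+) for rescue and T26A8.4 with a TY1, EGFP and 3xFLAG tag. Bleaching and starvation at L1 brought the larvae into step, they were taken at 48 hours, and sonication sheared their chromatin. There was 1 group of 2 biological replicates and no second condition, so no contrast between samples could be tested and no p-values are given. The tagged protein was expressed from an added gene copy, and whole larvae mix all tissues, so a peak does not say in which cells the protein was bound.

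Translation starts when eIF3 and eIF1A prepare the small ribosomal subunit, eIF2 delivers the initiator tRNA, and the eIF4 factors bring the capped mRNA. During elongation, eEF1A carries aminoacyl-tRNAs to the ribosome and is recharged by the eEF1B and eEF1G exchange complex, eEF2 moves the ribosome along the mRNA, and eIF5A helps it past stretches that are slow to form peptide bonds. At a stop codon, eRF1 and its GTPase partner eRF3 release the finished chain. eEF1A is among the most abundant proteins of eukaryotic cells.

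A gene was said to have a summit when the highest point of a deposited peak lay from 1000 bp upstream to 200 bp downstream of its annotated start. Peak signal is the authors' own score, on a scale that the sources used here do not give, and it was compared only within a peak list. The list made from both replicates together by thresholding on the irreproducible discovery rate is called the combined list here. Of the 41 translation factor genes, 12 (29.3%) had a summit of the combined list, against 7.06% of all protein-coding genes. The genes with a summit were eef-1A.1, eef-1A.2, eef-1B.1, eef-1G, eef-2, iff-2, erfa-3, eif-3.B, eif-3.C, eif-3.G, eif-2Bgamma and ife-3. Among these members, elongation factor genes had a summit in 5 of 6 cases, and initiation factor genes in 5 of 31. The eIF5A pair and the release factor pair had 1 gene of 2 each with a summit. The 41 members were found on all 6 nuclear chromosomes, and the 2 on chromosome IV had no summit.

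The DNA under 6 of these summits shows the range of these sites, the highest and the lowest signal included, and the runs of letters that recur among them. All are given on the strand of the gene, from the RefSeq WBcel235 sequence, which is the ce11 build of the peak lists. The pieces cover up to 100 bp on both sides of the summit and stop where a gene start was reached. The first pair are summits of the 2 eEF1A genes, at chrIII:6971961-6972161 (minus strand) and chrX:7823178-7823378 (plus strand). Capitals mark the longest run that each shares with the summit of another elongation factor gene, a run of 16 letters with eef-2 for eef-1A.1 and of 15 letters with eef-1G for eef-1A.2.
eef-1A.1: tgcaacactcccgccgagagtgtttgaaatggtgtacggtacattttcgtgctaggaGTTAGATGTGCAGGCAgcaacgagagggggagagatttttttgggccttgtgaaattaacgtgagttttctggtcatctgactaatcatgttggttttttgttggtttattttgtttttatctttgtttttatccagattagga
eef-1A.2: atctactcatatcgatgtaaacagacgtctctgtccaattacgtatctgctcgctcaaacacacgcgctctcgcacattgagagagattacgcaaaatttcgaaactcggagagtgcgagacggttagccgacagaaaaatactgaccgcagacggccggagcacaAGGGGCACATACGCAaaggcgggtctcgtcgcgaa
The next pair are eIF3 subunit genes, at chrII:14795027-14795227 (plus strand) and chrII:8442314-8442514 (plus strand), with capitals for 9 letters found at all 3 eIF3 summits.
eif-3.B: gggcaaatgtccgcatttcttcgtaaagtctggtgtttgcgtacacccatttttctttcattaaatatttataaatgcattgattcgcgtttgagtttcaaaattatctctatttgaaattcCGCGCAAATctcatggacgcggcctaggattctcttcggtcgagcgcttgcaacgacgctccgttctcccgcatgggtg
eif-3.G: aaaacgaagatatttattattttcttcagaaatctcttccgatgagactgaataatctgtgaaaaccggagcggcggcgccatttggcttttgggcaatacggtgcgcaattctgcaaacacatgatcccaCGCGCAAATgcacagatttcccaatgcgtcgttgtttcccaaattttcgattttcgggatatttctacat
The last pair are the member with the highest signal, at chrII:8561368-8561538 (minus strand, no capitals), and the member with its summit farthest from its start, at chrV:8740-8912 (minus strand, capitals for a GA repeat).
iff-2: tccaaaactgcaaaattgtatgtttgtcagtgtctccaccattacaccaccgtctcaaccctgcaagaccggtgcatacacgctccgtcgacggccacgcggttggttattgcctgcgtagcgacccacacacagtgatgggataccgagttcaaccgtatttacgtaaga
ife-3: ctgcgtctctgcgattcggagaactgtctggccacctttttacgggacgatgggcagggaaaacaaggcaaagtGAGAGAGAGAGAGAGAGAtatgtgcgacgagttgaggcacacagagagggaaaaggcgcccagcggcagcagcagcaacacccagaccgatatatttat

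Of the 6 elongation factor genes among the members 5 had a summit. eef-2, the gene of the translocase eEF2, had a peak signal of 223 in replicate 1 and 253 in replicate 2, both within the 500 highest of the ranked lists. Its combined signal was 462, rank 122 of 2993, with the summit 13 bp upstream of the annotated start. eef-1G, which encodes the gamma subunit of the exchange complex, had signals of 236 in replicate 1 and 200.5 in replicate 2. Its combined signal was 421 at rank 150, 23 bp upstream of the start. eef-1B.1, which encodes an exchange subunit, had signals of 157.5 in replicate 1 and 153.6 in replicate 2. Its combined signal was 310 at rank 267, 34 bp upstream. These 3 summits lay almost on the annotated starts.

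The 2 genes of eEF1A, which carries aminoacyl-tRNA, had summits farther from their starts. eef-1A.2 had signals of 135.8 in replicate 1 and 136.3 in replicate 2, and a combined signal of 278 at rank 330, 376 bp upstream. eef-1A.1 had signals of 115.1 in replicate 1 and 123.3 in replicate 2, and a combined signal of 240 at rank 457, 349 bp upstream. The signals of the replicates differed little at both genes. The summits of the replicates lay 44 bp apart at eef-1A.1 and 9 bp apart at eef-1A.2. The paralog eef-1B.2 was the elongation factor gene without a summit. It had only ranked peaks below the threshold, with signals of 29.4 in replicate 1 and 32.4 in replicate 2 and scores of 184 and 445, where the threshold score was 830. Within the exchange complex the signal therefore stood at one of the 2 eEF1B genes and not at the other under the authors' threshold.

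Among all translation factor genes, iff-2 had the highest signal. It is 1 of the 2 genes of eIF5A. Its peak, at chrII:8561301-8561574, had signals of 305 in replicate 1 and 345 in replicate 2, ranks 75 and 59. The combined signal was 624 at rank 71, and the summit lay 71 bp upstream of the start. Its paralog iff-1, known for its role in the germ line, had ranked peaks only, with signals of 32.1 in replicate 1 and 38.9 in replicate 2. The eIF5A pair thus differed in the same direction in both replicates.

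The release factor genes passed in some lists and not in others. erfa-3, which encodes the GTPase eRF3, had a combined signal of 142 at rank 1170, with the maximum score of 1000, and a summit 312 bp upstream. Its signal was 70.0 in replicate 1 and 63.1 in replicate 2. The score was 723 in replicate 1, below the threshold of 830, and 850 in replicate 2. erfa-1, which encodes the stop codon reader eRF1, passed in replicate 1 alone, with a signal of 62.2, a score of 958 and a summit 390 bp upstream. In replicate 2 its signal was 24.8 with a score of 111, and neither list made from both replicates held it.

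**Figure D1:**
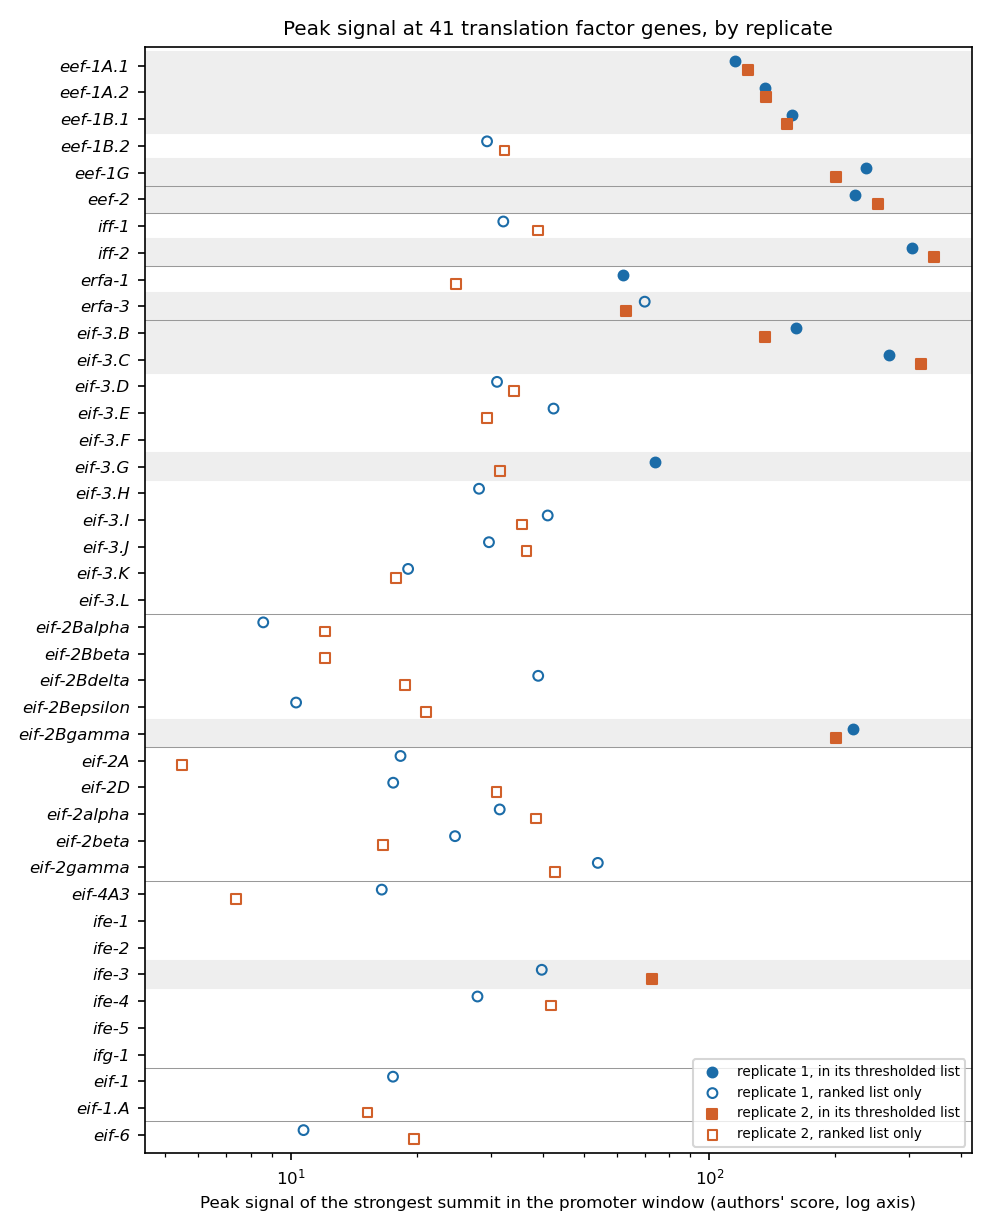
Peak signal (authors' score, log axis) of the strongest summit in the promoter window of each of the 41 genes, in the ranked lists of replicate 1 (circles) and replicate 2 (squares). Filled points passed the threshold of that replicate's own list, grey rows had a summit of the combined list and lines separate the families. iff-2 and eif-3.C lie farthest to the right in both replicates, and 6 rows hold no point.

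Of the 11 eIF3 subunit genes, which build the scaffold on the small ribosomal subunit, 3 had a summit. eif-3.C had signals of 269 in replicate 1 and 320.4 in replicate 2, and a combined signal of 589 at rank 79, 250 bp upstream. eif-3.B, which encodes a core scaffold subunit, had signals of 161 in replicate 1 and 136 in replicate 2, and a combined signal of 291 at rank 299, 277 bp upstream. eif-3.G was the weakest of all 12 members with a summit, with a combined signal of 92.7 at rank 2315, 353 bp upstream. Its signal was 74.0 in replicate 1, rank 1199, and 31.5 in replicate 2, rank 8512. It was absent from the thresholded list of replicate 2 and from the conservative list, the shorter of the lists made from both replicates (2810 peaks, against 2993 in the combined list).

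The other 8 eIF3 genes had no summit of the combined list. eif-3.I, eif-3.E and eif-3.D were among the 5 members without a summit in any thresholded list whose ranked peaks stood highest in both replicates, a rule that leaves out eif-2gamma, which the conservative list held. Their signals in replicate 1 were 41.04, 42.4 and 31.1, and in replicate 2 they were 35.6, 29.3 and 34.1, in the same order. eif-3.F and eif-3.L had no ranked peak in either replicate. Subunits of this single complex thus covered nearly the whole range of signals, from eif-3.C to genes with no ranked peak.

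Of the 5 genes for subunits of eIF2B, the exchange factor that recycles eIF2, only eif-2Bgamma had a summit. Its signals were 221 in replicate 1 and 201.2 in replicate 2, and its combined signal was 454 at rank 127. The summit lay 663 bp upstream, inside the neighbouring gene C15F1.5, 83 bp beyond the 3′ end of the snRNA gene sup-39 and 247 bp downstream of its start. No other protein-coding gene had this summit in its window. Whether the peak belongs to eif-2Bgamma, to C15F1.5 or to sup-39 cannot be told apart from its position.

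None of the 5 genes of eIF2, eIF2A and eIF2D had a summit of the combined list. eif-2gamma, which encodes the GTPase subunit of eIF2, was held by the conservative list alone, with a signal of 85.2 at rank 2414, a score of 938 and a summit 799 bp upstream. Its ranked peaks had signals of 54.1 in replicate 1 and 42.8 in replicate 2. eif-2alpha, which encodes the subunit whose phosphorylation holds back translation, was also among the 5 highest of the members without a summit in any thresholded list, with 31.5 in replicate 1 and 38.5 in replicate 2. The strongest ranked peaks of eif-2alpha in the replicates were 1081 bp apart, so they were not the same site.

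In the group of eIF4E, eIF4G and eIF4A3 genes, ife-3 was the 1 gene of 7 with a summit. It encodes an eIF4E, the protein that binds the mRNA cap. Its combined signal was 118 at rank 1584, with signals of 39.7 in replicate 1 and 72.7 in replicate 2, and replicate 1 did not pass its own threshold. The summit lay 984 bp upstream, at the edge of the window, and only 73 bp upstream of another gene, B0348.10. Of the other eIF4E genes, ife-4 had ranked peaks with signals of 27.9 in replicate 1 and 41.8 in replicate 2. ife-1, ife-2, ife-5 and the eIF4G gene ifg-1 had no ranked peak in either replicate. The eIF4A3 gene eif-4A3 had ranked peaks only, with signals of 16.5 in replicate 1 and 7.38 in replicate 2. eif-1, eif-1.A and eif-6 also had no thresholded summit in any list.

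The count of members was similar in every thresholded list. It was 12 (29.3%) in the conservative list, against 6.63% of all protein-coding genes. In replicate 1 it was 11 (26.8%), against 4.84%, and in replicate 2 it was 11 (26.8%), against 5.50%. The ranked lists, which reach far below the threshold, held a summit for 33 members (80.5%) in each replicate, against 48.4% of all genes in replicate 1 and 45.3% in replicate 2. Of the 29 members with no combined summit, 19 had a ranked peak in both replicates, 4 in one and 6 in neither. The 21 members of this kind with a ranked peak in replicate 1 had a median signal of 28.1 (8.57 to 62.2), and the 21 with one in replicate 2 had a median of 24.8 (5.48 to 42.8). Of the 18563 protein-coding genes with no combined summit, 6072 had a ranked peak in both replicates, 3774 in one and 8717 in neither.

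**Figure D2:**
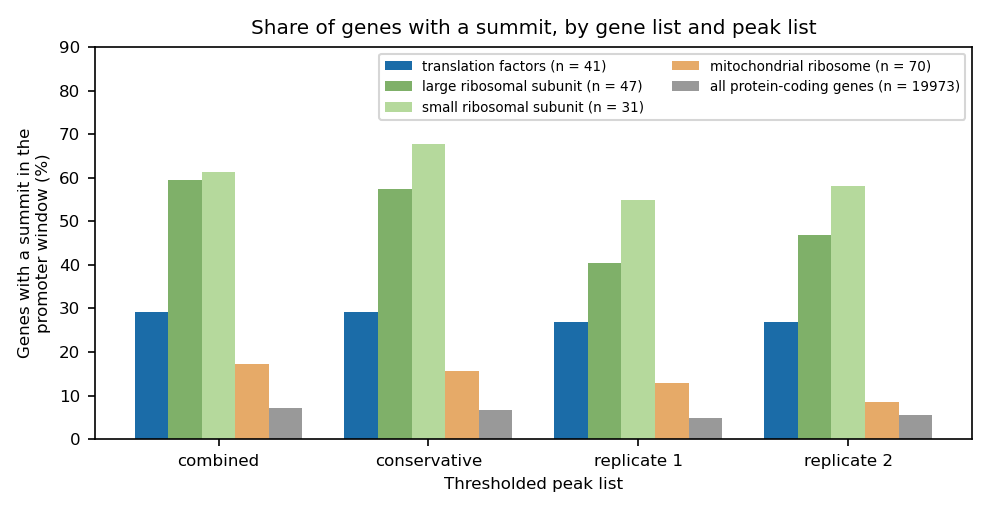
Percent of genes with a summit in the promoter window, from 0, in each thresholded list, for the translation factor genes, the ribosomal protein genes, the mitochondrial ribosomal protein genes and all protein-coding genes. The translation factor bars lie between 26.8% and 29.3%, below those of both cytosolic ribosomal subunits and above those of the mitochondrial ribosome and of all genes.

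The replicates gave near-equal positions at the members with a summit. The strongest peaks of the replicates lay a median of 13.5 bp and at most 44 bp apart at these 12 genes. The ratio of the signal in replicate 1 to that in replicate 2 was 0.546 at ife-3, the lowest, and 2.35 at eif-3.G, the highest. Across the 12 genes the signals had a Spearman rho of 0.93, a description with no test, since the genes share their libraries. These genes were picked by a threshold on the irreproducible discovery rate, so such agreement was partly selected for and is no separate result. At the 19 members without a combined summit but with a ranked peak in both replicates, the peaks lay a median of 72 bp apart, 6 pairs were within 50 bp, and rho was 0.565. Their signals overlapped those of the weakest members with a summit, since they reached 62.2 in replicate 1 and 42.8 in replicate 2.

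Members with a summit had a median combined signal of 300.4 (92.7 to 624), against 146 (2.30 to 1884) for the 1410 protein-coding genes with a summit. Of the 12, 9 (75%) had a summit among the 500 highest signals of the list, against 25.3% of all genes with a summit. Their median position was 294.5 bp upstream, against 252 bp upstream for all genes with a summit. Their positions lay in 3 ranges. eef-2, eef-1G, eef-1B.1 and iff-2 had their summit within 100 bp of the start (4 of 12, 33.3%, against 18.3%). eef-1A.1, eef-1A.2, erfa-3 and the 3 eIF3 genes had theirs between 200 and 400 bp upstream (6 of 12, 50%, against 26.7%). eif-2Bgamma and ife-3 lay farther out. No rule set beforehand fixed these ranges or the cut at the 500 highest signals, so the shares are descriptions with no test.

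**Figure D3:**
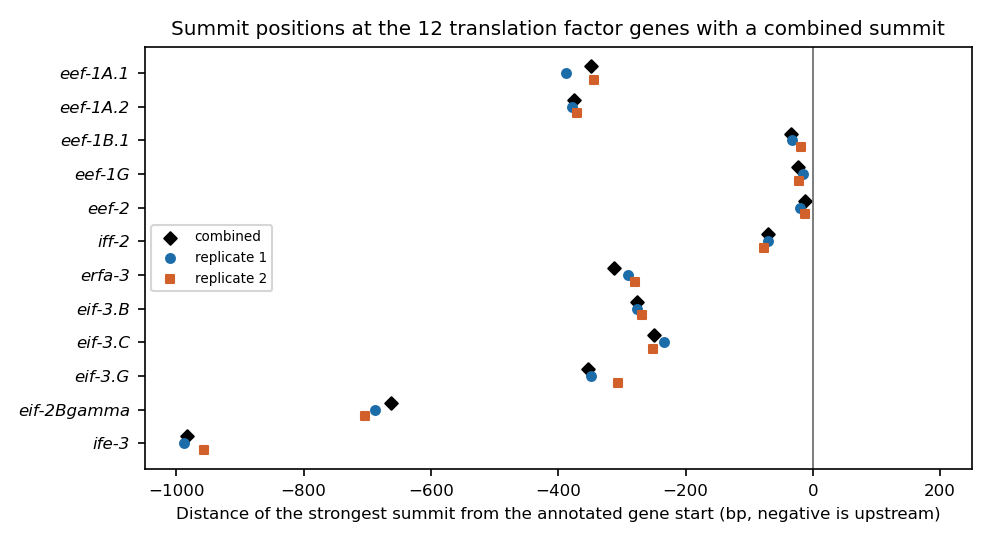
Distance in bp of the strongest summit from the annotated gene start (0, negative is upstream) at the 12 genes with a combined summit, in the combined list (diamonds), replicate 1 (circles) and replicate 2 (squares). 4 genes have their summits within 100 bp of the start, 6 lie between 200 and 400 bp upstream in the combined list, and the replicates lie at most 44 bp apart.

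Many members face another gene across a short gap. The nearest upstream gene was on the opposite strand and under 1000 bp away for 22 of the 41 members (53.7%), against 21.3% of all protein-coding genes. Of these 22 members 6 had a summit, against 12.3% of all genes in that arrangement. Of the 13 members with an upstream neighbour on the same strand under 1000 bp away, 4 had a summit, against 6.52%. The members' higher share was thus seen in both arrangements. Of the 5 members with a same-strand neighbour at 1000 bp or more, 2 (eef-1A.2 and eif-3.B) had a summit, against 3.92%, and the 1 member with an opposite-strand neighbour that far away, eif-2beta, had none, against 6.19%. The median gap was 577.5 bp for members with a summit, 458 bp for members without and 938 bp for all protein-coding genes.

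Of the 12 summits, 7 also lay in the window of a second protein-coding gene, a share that was not counted for all genes. The member's own start was the nearest one at 10 of 12 (83.3%), against 77.7% of all genes with a summit. The summit of eef-2 lay 252 bp upstream of clsp-1 (claspin), that of eef-1G 157 bp upstream of ctf-4, and that of eef-1B.1 297 bp upstream of aco-2, the mitochondrial aconitase. The summit of erfa-3 lay 504 bp upstream of math-33 and that of iff-2 864 bp upstream of F54C9.14. In these 5 cases the translation factor gene had the nearer start. The summit of eef-1A.1 was nearer to rfc-4, a clamp loader subunit of DNA replication, at 192 bp, and that of ife-3 was nearer to B0348.10. The summit of eef-1A.1 also lay inside the annotated microRNA gene cel-mir-5549. eef-1A.2, eif-2Bgamma, eif-3.B, eif-3.C and eif-3.G shared their summit with no second protein-coding gene. At a shared summit the peak lists do not say which gene, if either, the bound protein acts on.

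The nearest combined summit was more than 10000 bp away for 15 of the 29 members without one (51.7%), against 70.0% of all protein-coding genes without one. The median distance was 10265 bp for these members, against 20474 bp for all genes without a summit. No member had a combined summit inside its gene but outside the window, a count that was not made for all genes.

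All 12 member summits were searched for 8 motifs on both strands, in the full DNA from 100 bp before to 100 bp after each summit. GAGAGA was at 4 of the 12 member summits (eef-1A.1, eef-1A.2, erfa-3 and ife-3), a share near the 30.5% of all 2993 summits, and at ife-3 it formed 7 overlapping matches. CTCTTC was at 3 of 12 (eef-1G, eif-3.B and eif-3.G), against 20.1% of all summits. TATAAA was at 2 of 12, against 12.7%, and GTTCNANNC, the letters of a tRNA gene's internal promoter, at eef-1G only, against 15.04%. CGCGCG was at eif-2Bgamma only, against 6.01%, and it can overlap the 9 letters marked at the eIF3 genes. CACGTG was at none of the 12, against 7.68%. GGGCGG was also at none, against 9.66%, and so was a run of 8 T, TTTTTTTT, against 11.5%. In the whole promoter window, GAGAGA was in 7 of the 12 members with a summit and in 16 of the 29 without, against 50.9% of all promoters. GC content at the member summits had a median of 45.3% (39.3% to 53.7%), against 43.8% at all summits, and it was above that of the DNA 500 to 700 bp away at 11 of 12 (all but erfa-3), against 75.3% of all summits. The median excess over that flanking DNA was 4.23 percentage points at member summits, against 6.97 at all summits and 5.47 at summits in promoter windows.

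The member summits were also compared with each other, a comparison chosen after the sequences were seen and given with no test. Over 66 pairs of summits in both orientations, the median of the longest shared run was 8 letters. The longest were the run of 16 letters at eef-1A.1 and eef-2 and the run of 15 letters at eef-1A.2 and eef-1G, and the next longest had 11 letters. The run of 16 letters occurs 4 times in the genome, and all 4 copies were in summit windows. The other 2 copies are at the ribosomal protein gene rpl-11.2 and at the start shared by the proteasome gene pbs-1 and K08D12.3. The run of 15 letters occurs 5 times, and 3 summit windows held it. The further window is at icd-1, which encodes a subunit of the nascent polypeptide-associated complex, and vps-32.1. Since the runs were picked at member summits, the copies there are in summit windows by choice. The other copies of the run of 16 letters were in summit windows at 2 of 2 places. For the run of 15 letters, 1 summit window outside the members held it, and the copies within that window were not counted.

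Shorter pieces of these runs were then counted in promoters of other genes, leaving out the members and the genes that share their summits. AGATGTGCAGG, the 11 letters of the longest run found in the most promoters, was in the promoter window of 37 other genes, and 14 of these (37.8%) had a combined summit, against 6.92% of the genes without it. Some of these 14 share a summit, as pbs-1 and K08D12.3 do, so they stand for 11 summits, and 9 summit windows outside the members held the letters. These 14 genes included icd-2, which encodes the other subunit of the nascent polypeptide-associated complex, and the ribosomal protein genes rps-26, rpl-33 and rpl-11.2. The alpha-tubulin gene tba-2, the prefoldin gene pfd-1 and the translocon gene sec-61.G were also among them. The rest were pbs-1, K08D12.3, wwp-1, farl-11, tmem-107, F01G4.6 and F32D8.13. Genes with the letters but no summit included the mitochondrial ribosomal protein gene mrpl-2, and cey-2. Among members AGATGTGCAGG was in the windows of eef-1A.1, eef-2 and eif-2Balpha, and eif-2Balpha had no summit. It was in 11 of the 2993 summit windows (0.368%), so it is at few sites. Over all 6 pieces of 11 letters from this run, the share with a summit was 37.0% to 61.1%, in 18 to 37 genes. GCACATACGCA, chosen in the same way from the run shared by eef-1A.2 and eef-1G, was in 11 other promoter windows, of which 2 (18.2%), icd-1 and vps-32.1 with the same summit, had one, against 6.97% of the genes without it. Over all 5 pieces of 11 letters from that run the share was 18.2% to 80%, in only 3 to 11 genes.

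CGCGCAAAT was at the summits of eif-3.B, eif-3.C and eif-3.G, with its centre 26, 25 and 35 bp from the summit, and in no other member's promoter window. It was at 0.535% of all summits and at 0.901% of summits in promoter windows. Outside the members, however, 17 of the 257 genes with these letters (6.61%) had a summit, against 6.99% of the genes without them, so elsewhere the share was near that of genes without the letters. The 6 letters GCACAT and CGCAAA were also chosen after the member summits were seen, so their shares there are no independent result. GCACAT was at 6 of the 12 member summits, against 8.19% of all summits and 9.99% of summits in promoter windows. At eef-1A.1, eef-1A.2, eef-1G and eef-2 a copy lies inside the runs described above, so these are the same sites again. Other genes with and without GCACAT had a summit in 6.99% and 6.98% of cases. CGCAAA, which overlaps CGCGCAAAT, was also at 6 of 12, against 13.6% of all summits and 18.9% of summits in promoter windows. Other genes had a summit in 8.28% of cases with it and 5.98% without it.

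**Figure D4:**
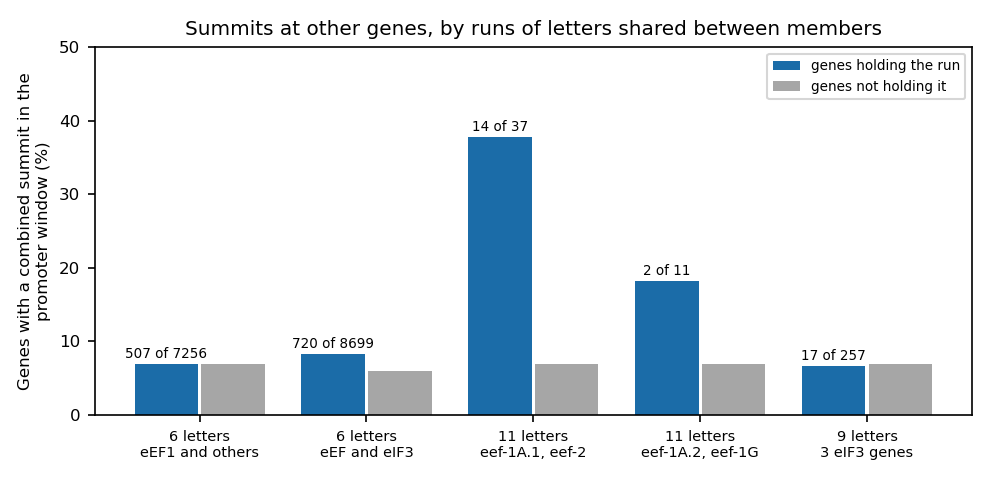
Percent of other protein-coding genes with a combined summit in the promoter window, from 0, for genes whose window holds (blue) or does not hold (grey) each run of letters shared between member summits, with the counts above the blue bars. The run of 11 letters from eef-1A.1 and eef-2 stands at 37.8%, 14 of 37 genes, and the run of 9 letters from the eIF3 genes stands at 6.61%, beside 6.99% without it.

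Other genes of the translation machinery were set beside the members with no test of the difference. Of 47 genes of the large ribosomal subunit 28 (59.6%) had a combined summit, and of 31 genes of the small subunit 19 (61.3%), both above the members' 29.3%. Of 70 mitochondrial ribosomal protein genes 12 (17.1%) had one. Translation factor genes with a summit had a median signal of 300.4, against 175 for the large subunit, 179 for the small subunit and 141 for the mitochondrial ribosome. A listed set of 30 other genes of translation and its control, of which 25 were found in the annotation, had 7 with a summit (28%), whose median signal of 371 was above the members' 300.4. The strongest was drr-2, which encodes a protein like eIF4H, with signals of 557 in replicate 1 and 545 in replicate 2 and a combined signal of 1091 at rank 18. ifet-1, the gene of an eIF4E-binding repressor, had 383 in replicate 1 and 393 in replicate 2, and larp-1, an RNA-binding protein gene, had 356 in replicate 1 and 334 in replicate 2. Their combined signals of 766 and 699.9 were above that of every translation factor gene. abcf-2 had a combined signal of 371, and pab-2, gcn-1 and abcf-3 had 141, 98.3 and 98.1. The poly(A)-binding protein gene pab-1, the eIF4A gene inf-1, rack-1 and the growth kinase genes rsks-1 and let-363 had no combined summit. Neither did the mitochondrial elongation factor genes tufm-1, tufm-2, tsfm-1 and gfm-1, which are not members under the symbol rule.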

How the data were processed

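ChIP-seq of tagged T26A8.4 was measured in 2 biological replicates of whole L4 larvae. The deposited files used were 6 peak lists on ce11: a combined and a conservative thresholded list, and a thresholded and a ranked list for each replicate. Per the labels' file listings, the authors thresholded peaks on the irreproducible discovery rate (IDR). No aligner or peak caller is named in the labels. The deposited lists give a peak score (maximum 1000) and a peak signal, also a score. The deposited lists also give −log10 of the authors' q-value and, if ranked, −log10 of the IDR. A score of 830 stands near a −log10 IDR of 2. The lists hold no reads, so depth is unknown. No control library was used here.

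Summit positions were read against the RefSeq WBcel235 genome and the protein-coding genes of Ensembl release 115 with Python 3.11.15, pandas 2.3.3 and NumPy 2.4.6, and the counting was tested on simulated data. A gene's strongest summit was the one with the highest signal in its window of 1000 bp upstream to 200 bp downstream. Ranks within the replicates refer to the ranked lists unless a thresholded list is named. The members, gene lists and motifs were chosen with earlier results of these data known. Genes were named if they were members with a summit in any thresholded list, paralogs of these, the 5 others with the highest ranked peaks in both replicates (by the worse of the 2 ranks), or listed pathway genes with a summit; further names were chosen after their values were seen. The alternatives were the conservative list, each replicate alone, the strongest 50% of summits, windows of 500 bp upstream to 100 bp downstream and of 2000 bp upstream, starts of any transcript, and the nearest gene only.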

Additional observations from a re-analysis of the deposited data

How the results depend on the processing

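Across 8 alternatives, 10 to 12 of the 41 translation factor genes had a summit. For all genes the count was 906 (4.54%) with the strongest 50% of summits, against 1410 as reported. With the window of 2000 bp upstream it was 1920 (9.61%), while the members stayed at 12 (29.3%). The 7 genes eef-1A.2, eef-1B.1, eef-1G, eef-2, eif-3.B, eif-3.C and iff-2 had a summit under every alternative, and 27 members had one under none. The eIF2, eIF2A and eIF2D genes had 1 with the conservative list and 0 as reported (eif-2gamma). The eIF2B genes had 0 with the window of 500 bp upstream and 1 as reported (eif-2Bgamma). The group of eIF4E, eIF4G and eIF4A3 had 0 without replicate 2, with the strongest 50% of summits, with the window of 500 bp and with the nearest gene only, and 1 as reported (ife-3); leaving out each replicate gave 0 to 1. eif-3.G was lost without replicate 1, with the conservative list and with the strongest 50%; erfa-3 was lost and erfa-1 gained without replicate 2; eef-1A.1 was lost with the nearest gene only. Over the 8 alternatives, the 12 members with a summit kept it in 86 of 96 cases and lost it in 10. The 29 members without one gained one in 2 of 232. Some of these cases could not change. The strongest 50%, the window of 500 bp and the nearest gene only can lose a summit but not gain one. The window of 2000 bp upstream and the starts of any transcript can gain one but not lose one. These counts are therefore no measure of stability on their own. Depth and the scale of the signal are unknown, so a missing summit does not show that the protein was absent. No paired analysis was possible because there was 1 group only.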
